A study of Mus musculus with 2 samples.

Results

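The TRBV17 TRBJ2-7 family is a group of mouse CD8 T cells that carry the same T cell receptor (TCR) beta chain, whose CDR3 region, the stretch that meets the antigen, reads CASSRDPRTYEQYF. Its members are the RNA barcodes with exactly 1 distinct productive TRB sequence in the TCR contig table, where that sequence encodes this CDR3. There were 100 members among 3882 RNA cells with 1 productive TRB, a share of 2.58% (95% exact interval 2.10 to 3.12), out of 10387 RNA barcodes in all. The other 3782 cells with 1 productive TRB are called other one-TRB cells. All 100 members passed the filter on cells, and 9 further barcodes with this TRB alone were seen in the TCR library but were not among the RNA barcodes.

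The cells are named GD2TIF by the submitters. They were T cells carrying a Cas9 transgene, activated and infected with a retrovirus that targets the genes Bcor and Zc3h12a and delivers 14g2a, a chimeric antigen receptor against the ganglioside GD2. Each immunocompetent C57BL/6 recipient received 1000000 of them, and 2 months later splenic CD8+Thy1.1+ cells were sorted and loaded on a Singleron microwell chip. There was 1 RNA library and 1 TCR library, with no untreated group, and members and other one-TRB cells share all of these treatments. How many mice were pooled and which promoter drives Cas9 were not given in the sources used here, and differences between families and between mice cannot be told apart.

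A T cell assembles its TRB gene by joining V, D and J segments and its TRA gene by joining V and J segments. Random bases are added at the joints, and the result passes to its daughters. A shared TRB nucleotide sequence is therefore the usual mark of descent from a common cell, although a beta chain made early in the thymus can be passed to daughters that each pair it with a different alpha chain. The family was put forward with Pigx as its marker. Pigx encodes a subunit of the enzyme that adds the first mannose to the glycosylphosphatidylinositol (GPI) anchor in the endoplasmic reticulum, where it works with the catalytic subunit encoded by Pigm. GPI anchors hold proteins such as Thy1, CD52 and the Ly6 proteins on the outer face of the T cell membrane.

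Below are the TRB of the family, that of the other large TRBV17 family, which served as its closest comparison, and the TRA most often found with the family TRB. Each is the CDR3 read 5′ to 3′ from the deposited contig table. Lower case marks the bases at either end shared with most other sequences of the same V or J gene in these data, and capitals mark the junction between them. No germline segment was read, so some capitals may be V or J gene bases. The V gene end rests on 26 other sequences for each TRB and on only 3 for the TRA.

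TRBV17 TRBJ2-7 family, TRB: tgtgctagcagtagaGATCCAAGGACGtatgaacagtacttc

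TRBV17 TRBJ1-1 family, TRB: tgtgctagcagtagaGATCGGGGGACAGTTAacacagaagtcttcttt

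most frequent TRA of the family: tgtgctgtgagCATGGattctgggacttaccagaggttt

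The family TRB was 42 bases and 14 residues long, with a junction of 12 bases. All 100 members held this 1 nucleotide sequence. The TRB of the TRBV17 TRBJ1-1 family was 48 bases long, with a junction of 16 bases. Both TRBV17 sequences matched over their first 19 bases and over their first 6 residues. The first 15 of these bases were those shared with most other TRBV17 sequences. Within 3 base differences of the family TRB only 2 other sequences were found, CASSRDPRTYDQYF at 1 difference and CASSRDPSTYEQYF at 2, in 1 barcode each.

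The family ranked 7th by size among 19 TRB families of at least 30 cells, which ranged from 31 to 882 cells. The V and J calls were TRBV17 and TRBJ2-7 in 100 of 100 members, and the constant gene was TRBC2 in 99 and not called in 1. The constant genes were also read in the RNA library. Trbc2 stood at 7644 counts per 1000000 UMIs (CPM) in members against 3569 CPM in other one-TRB cells, and Trbc1 at 885 CPM against 3445 CPM. Members had a median of 17 UMIs on the TRB contig, with a range of 3 to 39, and other one-TRB cells a median of 15.

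The depth of the cells limited what could be read from them. The median member had 1839 UMIs from 954 genes, and the median other one-TRB cell 2077 UMIs from 1036 genes. Thinned to 1000 UMIs each, 96 members gave a median of 627.5 genes and 3645 other cells a median of 620. The mitochondrial share had a median of 3.13% in members and 3.46% in the others. Summed over cells, the family held 207888 UMIs and the others 8592716, so that 3 UMIs amounted to 14.4 CPM in the family. There is 1 library and cells are not replicates, so no test was run. The 95% intervals given here measure counting error alone and say nothing of the spread among mice.

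Members were CD8 T cells by their transcripts. Genes with at least 10 UMIs expected in the family at the pooled level are called tested, and over all of them 0.673% were at least 2-fold higher in members and 2.87% at least 2-fold lower. Of 13 tested T cell identity genes none was 2-fold higher or lower than in other one-TRB cells, and their median ratio was 1.08. Cd3e stood at 1443 CPM in members against 1522 CPM in the others, Cd8b1 at 515 CPM against 404 CPM and Cd8a at 303 CPM against 215 CPM. Lat, which encodes the adaptor that relays TCR signals, was the gene of this list with the largest ratio, 659 CPM against 424 CPM or 1.55-fold (1.30 to 1.84). Markers of other cells were mixed. Foxp3, the Cd79a and Ms4a1 genes of B cells, 8 of 9 NK genes and all measured markers of gamma delta T cells, dendritic cells, neutrophils and platelets were at 0 in the family, where 0 allows up to 14.4 CPM per gene. The remaining NK gene, Eomes, was at 486 CPM against 334 CPM in the others. Foxp3 and the neutrophil genes were also at 0 in the others. Cd79a, Ms4a1 and the summed gamma delta and platelet genes were between 0.349 and 1.05 CPM there. In the family 1 UMI amounted to 4.81 CPM, so a 0 in these genes could not set the members apart. Of the list of CD4 and regulatory T cells, Ikzf2 was at 207 CPM against 232 CPM and Ctla4 at 96.2 CPM against 126 CPM. Cd4 itself had 1 UMI in the family and 5 UMIs in the others. Summed B cell genes were at 693 CPM in the family against 662 CPM in the others, with 5 of the 11 genes, Cd79a, Cd79b, Ms4a1, Pax5 and H2-Ab1, at 0 in the family. Igkc, an immunoglobulin light chain gene, was at 265 CPM in the family against 67.5 CPM in the others, a ratio of 3.92 (2.92 to 5.17). Ighm was at 327 CPM against 458 CPM and Ighd at 81.8 CPM against 103 CPM.

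The alpha chain of the members was mixed. The most frequent TRA, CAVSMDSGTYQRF from TRAV9D-3 and TRAJ13, was in 23 of 100 members (15.2 to 32.5%) against 5 of 3782 other one-TRB cells, or 0.132%. Among the 77 members with any productive TRA it was in 29.9%. In all, members held 22 distinct TRA, of which 15 were seen in 1 member. No TRA was found for 23 members, a share of 23.0% against 5.68% of other one-TRB cells, while 64 members had 1 TRA and 13 had 2.

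Many of the other alpha chains were those of larger families. A TRA carried by more cells of another family of at least 30 cells was found in 47 members. Of these, 1 also held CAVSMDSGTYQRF. TRA of smaller families were not counted, such as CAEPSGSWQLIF, in 2 members and in all 18 cells of another TRB. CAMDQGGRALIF, the TRA of the TRBV29 family, was in 21 members, 21.0% (13.5 to 30.3) against 8.47% of the cells outside both families. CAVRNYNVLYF, which 71.8% of the largest family carried, was in 12 members, against 5.17% of other cells outside that family. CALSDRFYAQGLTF, the TRA of the TRBV17 TRBJ1-1 family, was in 8 members, against 4.77% of other cells outside that family. The same alpha chains therefore occurred at a few percent beside many unrelated TRB. Whether they are true second partners of the family TRB was not tested, and the members with such a TRA are given on their own below. The authors' clonotypes, which use both chains, spread the members over 21 clonotypes, the largest of 23 cells.

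Pigx set the family apart from every other family of at least 30 cells. The members held 206 Pigx UMIs, a level of 991 CPM (860 to 1136), against 543 UMIs and 63.2 CPM (58.0 to 68.7) in other one-TRB cells. The ratio was 15.7 (13.3 to 18.4). Across the other 18 families Pigx ranged from 38.5 to 120 CPM with a median of 55.3 CPM, so no other family came near. Over the highest of these, a TRBV12-2 TRBJ1-1 family of 59 cells with 18 Pigx UMIs, the family stood 8.27-fold higher (5.10 to 14.2). Since Pigx was known as the marker from earlier work on these data, its level is a description.

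**Figure D1:**
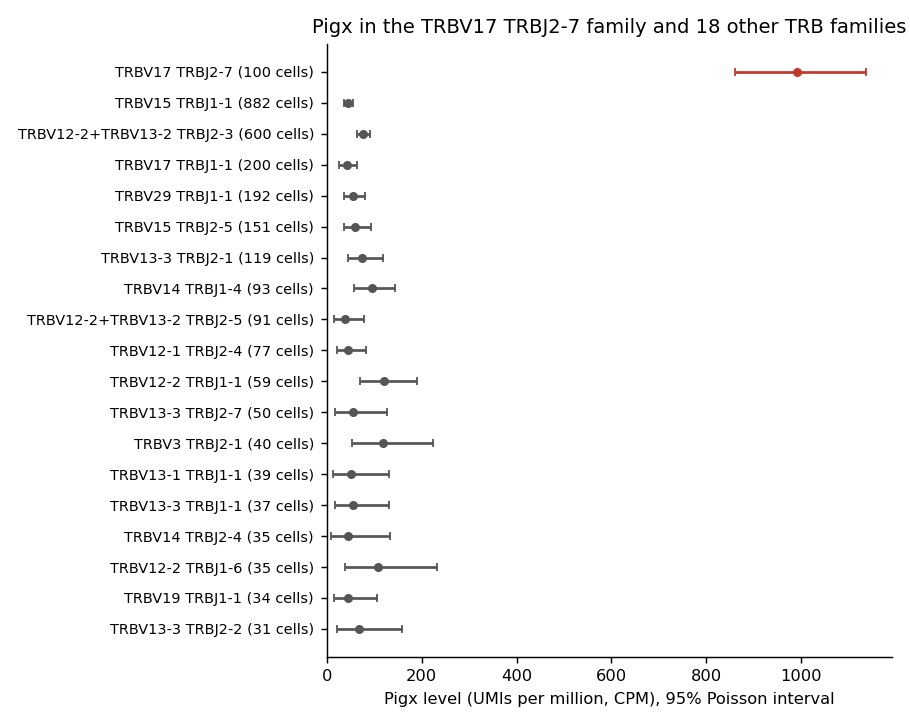
Pigx level in counts per 1000000 UMIs (x axis) in each TRB family of at least 30 cells (rows, named by V and J gene with the number of cells). The points are summed UMIs per 1000000 and the bars 95% Poisson intervals; the TRBV17 TRBJ2-7 family, at the top, lies at 991 CPM and the others between 38.5 and 120 CPM.

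The Pigx signal was spread over most members rather than carried by a few. At least 1 Pigx UMI was seen in 71 of 100 members and in 11.4% of other one-TRB cells, at median depths of 1839 and 2077 UMIs. After thinning to 1000 UMIs the shares were 57.3% (46.8 to 67.3) of members and 5.84% (5.10 to 6.65) of the others. At 4 or more Pigx UMIs there were 21 of 100 members, 2 of 3782 other one-TRB cells and 51 of 5752 RNA cells without any TCR contig, whose family is unknown. The member with most Pigx UMIs had 12, and without that cell the ratio was 15.05. The 29 members with no Pigx UMI had a median of 1737 UMIs in all, against 1902 in the 71 with one.

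**Figure D2:**
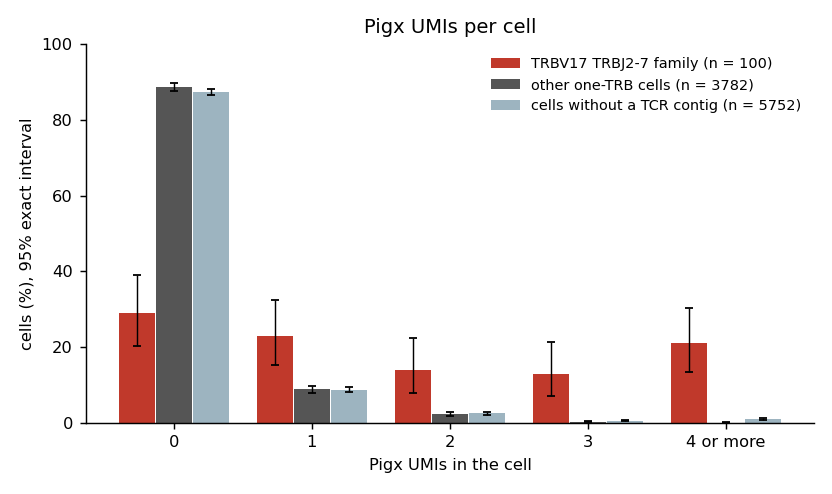
Share of cells in percent (y axis) by the number of Pigx UMIs in the cell (x axis), for the 100 members, the 3782 other one-TRB cells and the 5752 cells without a TCR contig. Bars are shares with 95% exact intervals; cells with 4 or more UMIs made up 21.0% of members, 0.0529% of other one-TRB cells and 0.887% of cells without a TCR contig.

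The rest of the GPI pathway did not share the Pigx level. Of 30 GPI anchor synthesis genes in the matrix 25 had a UMI in the family and 6 were tested. Pigx was 2-fold higher, none was 2-fold lower, and the median ratio of the 6 was 0.816. Pigp, of the complex that starts the anchor, stood at 86.6 CPM in members against 90.7 CPM in the others. Dpm2, a subunit of dolichol-phosphate-mannose synthase, was at 86.6 CPM against 52.1 CPM, and its partner Dpm3 at 72.2 CPM against 121 CPM. Pigt and Pigk, subunits of the transamidase that joins anchor and protein, were at 38.5 CPM against 56.9 CPM and at 28.9 CPM against 50.2 CPM. Pigm, the catalytic partner of Pigx, had 4 UMIs, 19.2 CPM against 14.5 CPM, with a ratio of 1.32 (0.355 to 3.47).

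Genes of GPI-anchored proteins gave a median ratio of 0.965 over 9 tested genes, with none 2-fold higher and 2 lower. Cd52 was at 3497 CPM in members against 3451 CPM in the others, and Ly6e at 702 CPM against 696 CPM. Thy1, whose Thy1.1 form was used to sort the cells, was at 327 CPM against 559 CPM, a ratio of 0.585 (0.454 to 0.743), 18th of the 19 families. Nt5e, which encodes the ectonucleotidase CD73, had 4 UMIs and a ratio of 0.365 (0.0990 to 0.941). Among the 23 members with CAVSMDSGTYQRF alone, Nt5e had a ratio of 1.01. Ly6c2 had 3 UMIs and a ratio of 0.261 (0.0536 to 0.768), but most families were low in it, with a median of 9.58 CPM against 14.4 CPM in the members.

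Pigx lies on mouse chromosome 16 at chr16:32084416-32099727 (GRCm38). Its measured neighbours did not share its level. Pak2, which encodes a kinase downstream of Rac and Cdc42, stood at 183 CPM in members against 196 CPM in other one-TRB cells. Nrros, on the other side, had a ratio of 0.894 (0.406 to 1.71). Cep19, whose annotated interval begins just past that of Pigx, had 7 UMIs in members and a ratio of 1.54 (0.610 to 3.23).

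Dnmt1 was the second gene that separated the family. Dnmt1 encodes the maintenance DNA methyltransferase, which copies CpG methylation onto the new strand after replication. Members held 97 Dnmt1 UMIs, 467 CPM (378 to 569), against 73.0 CPM (67.4 to 78.9) in other one-TRB cells. The ratio was 6.39 (5.11 to 7.93), and the other 18 families ranged from 17.8 to 92.2 CPM. A Dnmt1 UMI was seen in 51 of 100 members against 13.2% of the others, and after thinning in 39.6% against 7.16%. Both Pigx and Dnmt1 UMIs were present in 40 members and neither in 18. Dnmt1 lies on chromosome 9 (chr9:20907206-20959888, GRCm38), so the 2 genes are not neighbours. Eif3g, at lower coordinates, was at 164 CPM against 221 CPM, and Mrpl4 at 96.2 CPM against 82.6 CPM, while S1pr2 had only 6 UMIs in 4 members and a ratio of 3.14 (1.12 to 7.14).

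By the correlation of mean CPM over the 19 families, Dnmt1 was the gene most like Pigx, with r = 0.964. The next were Suz12, a Polycomb subunit, at 0.696, Vps13c at 0.692, Ctdnep1 at 0.678 and Mark3 at 0.677. These values rest on 1 point. Without the TRBV17 TRBJ2-7 family, over the other 18 families, r was -0.07 for Dnmt1, -0.22 for Suz12, -0.23 for Vps13c, -0.05 for Ctdnep1 and -0.27 for Mark3.

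Over all genes the family differed from the others at few. Of 3420 tested genes 23 were at least 2-fold higher in members, 0.673%, and 98 at least 2-fold lower, 2.87%, with a median ratio of 0.997. The same comparison gave 29 higher and 111 lower of 3889 genes for the next larger family, of 119 cells. For the next smaller family, of 93 cells, it gave 20 higher and 207 lower of 3630 genes. The share higher, 0.673%, lay between 0.746% in the larger and 0.551% in the smaller of them. The share lower, 2.87%, was near 2.85% in the larger and below 5.70% in the smaller. The leading ratio of the family, 15.7 for Pigx, exceeded 5.25 and 4.09 in those families. The TRBV17 TRBJ1-1 family, of 200 cells, led with Ly6c2 at 7.98.

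**Figure D3:**
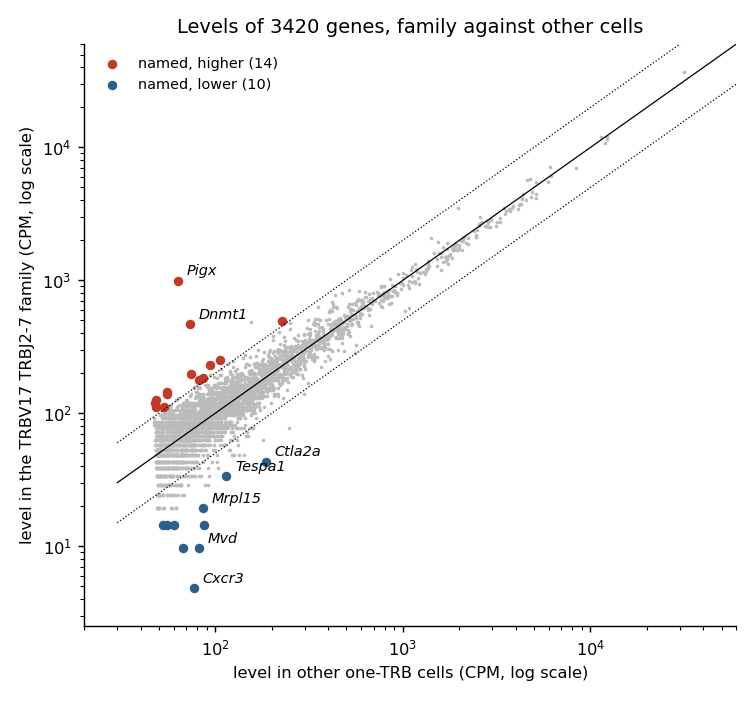
Level of 3420 tested genes in the family (y axis) and in other one-TRB cells (x axis), both in counts per 1000000 UMIs on log scales. The solid line marks equal levels and the dotted lines 2-fold; red and blue points are 14 named higher and 10 named lower genes, and Pigx at 991 CPM in the family against 63.2 CPM lies farthest above the line.

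Interferon-inducible genes were among the next highest genes. They were led by Gbp2, Tgtp2 and Igtp, which encode interferon-inducible GTPases that act against intracellular pathogens. Gbp2 was at 120 CPM in members against 47.6 CPM in other one-TRB cells, a ratio of 2.53 (1.62 to 3.78). Tgtp2 was at 231 CPM against 93.1 CPM, a ratio of 2.48 (1.81 to 3.32). The second largest family, of 600 cells, had Tgtp2 at 229 CPM, and the members stood at 1.01-fold (0.730 to 1.36) over it. Igtp was at 250 CPM against 105 CPM, a ratio of 2.37 (1.76 to 3.14). Igtp was at 3.71 in the 23 members with the most frequent TRA and, at 1.88, under 2-fold in the other 77. Of 18 interferon response genes 8 were tested, 3 were 2-fold higher and 1 lower, with a median ratio of 1.46 against 0.997 over all genes. The lower one was Ifi27l2a at 77.0 CPM against 248 CPM, a ratio of 0.310 (0.177 to 0.504).

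The list was uneven. Irf1, a factor induced by interferon gamma, stood at 265 CPM in members against 152 CPM in the others, or 1.74-fold (1.30 to 2.28). Zbp1, Ifi203 and Bst2 had ratios of 1.18, 1.09 and 1.04. Genes typical of type I interferon were below the depth set for testing. Usp18 had 13 UMIs in members and a ratio of 1.73 (0.913 to 3.01), Isg15 had 9 and 1.56 (0.706 to 3.02), and Irf7 had 9 and 1.31 (0.595 to 2.53). Ifit3 had 3 UMIs and a ratio of 1.08, Ifit1 had 2 and 1.10, and Mx1, Rsad2 and Oasl2 had none. Iigp1, another interferon-inducible GTPase, had 25 UMIs in the family and 3.10 times the level of the others (1.98 to 4.66), below the depth set for testing. It was at 120 CPM in members and higher, at 200 CPM, in the TRBV17 TRBJ1-1 family. Outside the list, and chosen after their values were seen, Serpina3f at 101 CPM against 12.3 CPM, Tgtp1 at 86.6 CPM against 20.5 CPM and Ube2l6 at 72.2 CPM against 21.3 CPM were higher in members. Tgtp1 and Tgtp2 are close copies, as are the Serpina3 genes, and the sources used here do not say how the authors' counting divided shared reads among them.

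Genes of class I antigen presentation, many of them interferon targets, summed to 23970 CPM (23309 to 24645) in members against 19849 CPM in other one-TRB cells, a ratio of 1.21 (1.174 to 1.24). The highest other family stood at 23471 CPM, within the interval of the members. None of the 10 tested genes passed 2-fold in either direction, and their median ratio was 1.25. Tap1, a chain of the peptide transporter, was at 409 CPM against 218 CPM, a ratio of 1.88 (1.49 to 2.33). The immunoproteasome genes Psmb9 and Psmb8 had ratios of 1.64 (1.37 to 1.93) and 1.47 (1.34 to 1.62). B2m, the light chain of class I, was at 7110 CPM against 6102 CPM, a ratio of 1.165. Against the TRBV17 TRBJ1-1 family alone the ratios of B2m, Tap1 and Psmb8 were 1.01, 0.991 and 1.03, each with an interval that held 1.

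Against the other TRBV17 family, TRBV17 TRBJ1-1, the differences in Gbp2 and Tgtp2 were within counting error, and those in Pigx and Dnmt1 were not. Gbp2 had a ratio, TRBJ2-7 family over TRBJ1-1 family, of 1.11 (0.663 to 1.82), Tgtp2 of 1.16 (0.807 to 1.66) and Serpina3f of 1.03 (0.586 to 1.75), while Igtp was lower in the TRBJ2-7 family at 0.631 (0.455 to 0.860). Pigx was 23.6-fold (15.01 to 38.9) and Dnmt1 5.06-fold (3.53 to 7.36) the level of the TRBJ1-1 family. The predicted gene Gm47283 was at 491 CPM against 62.1 CPM, or 7.90-fold (5.24 to 12.2). The TRBJ1-1 family was low in this gene, where the other families ranged from 51.6 to 414 CPM with a median of 229 CPM. Over the highest of them the members stood at 1.19-fold (0.807 to 1.78). Ly6c2, the leading gene of the TRBJ1-1 family, was at 14.4 CPM against 311 CPM there, and Ly6a at 130 CPM against 321 CPM. Pdcd1, which encodes the inhibitory receptor PD-1, was at 418 CPM against 264 CPM, a ratio of 1.58 (1.19 to 2.09).

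The other named higher genes had ratios between 2.09 and 2.65. Vps13c, which encodes a lipid transfer protein, stood at 197 CPM in members against 74.4 CPM in other one-TRB cells, a ratio of 2.65 (1.88 to 3.64). It was the highest of all families, the next being the TRBV17 TRBJ1-1 family at 118 CPM. Upf3b, of nonsense-mediated decay, had a ratio of 2.61 (1.74 to 3.77), Arhgap10 2.59 (1.67 to 3.85), and Srbd1 2.54 (1.68 to 3.70). Arhgap10 and Srbd1 were each under 2-fold in some members grouped by TRA. Srbd1 was at 4.85 in the 23 members with the most frequent TRA and at 1.68 in the other 77, while Arhgap10 was at 1.84 in the 23 and at 2.87 in the 77. Aff1, a scaffold of the super elongation complex, had 2.29 (1.43 to 3.48), and Gm47283 2.16 (1.75 to 2.63) on 102 UMIs. Cmah, which makes the sialic acid Neu5Gc, the ceramide synthase gene Cers5 and the Golgi gene Yipf4 had ratios of 2.16, 2.12 and 2.09, and each was under 2-fold without the single member with most of its UMIs. Gm47283, Cmah and Cers5 were also under 2-fold in the 23 members with the most frequent TRA, and Yipf4 in the other 77. Over the highest other family Vps13c was at 1.67 (1.09 to 2.53), while for each other gene of this paragraph the interval held 1. Upf3b was at 1.32 (0.655 to 2.83), Arhgap10 at 1.14 (0.556 to 2.49) and Srbd1 at 1.196 (0.687 to 2.09). Yipf4 was at 1.34 (0.670 to 2.76) and Aff1 at 1.04 (0.432 to 2.87). Cmah, at 0.780, and Cers5, at 0.932, were higher in another family.

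**Figure D4:**
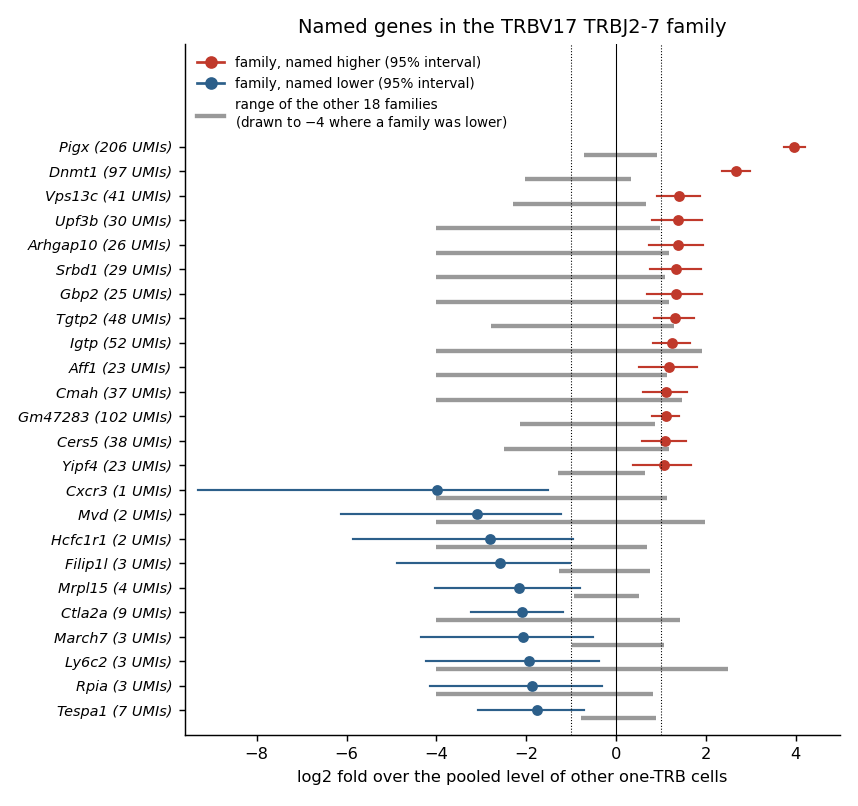
Log2 ratio of the level in the family over the pooled level of other one-TRB cells (x axis) for 24 named genes (rows, with the UMIs in the family). Points are ratios with 95% conditional intervals and grey bars the range of the other 18 families on the same scale; the points of Pigx and Dnmt1 lie far right of the grey bars, while those of Igtp and Cmah lie within them.

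Some genes below the depth set for testing, chosen after their values were seen, stood out. Chrna4, which encodes a nicotinic acetylcholine receptor subunit of neurons, had 18 UMIs in 4 members, 10 of them in 1 cell, against 11 UMIs in all 3782 other one-TRB cells. In 15 of the other 18 families it was at 0. Insl6, an insulin-like gene, had 29 UMIs in 18 members, a ratio of 5.17 over the others (3.38 to 7.62), and it was highest in this family. Ginm1 had 28 UMIs, a ratio of 3.78, but 19 of them lay in 1 cell.

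On the lower side Cxcr3 had the smallest ratio. Cxcr3 encodes the receptor for the interferon-induced chemokines Cxcl9 and Cxcl10. It had 1 UMI in the family, 4.81 CPM (0.122 to 26.8), against 76.7 CPM in other one-TRB cells, a ratio of 0.0627 (0.00159 to 0.351). Families varied widely in this gene, with 4 of the other 18 at 0, a median of 29.3 CPM and a highest level of 168 CPM in the second largest family.

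Filip1l, Mrpl15, March7 and Tespa1 were lower in this family than in each of the other 18 families. For each, the interval of the members reached past the lowest other family, so these ranks were within counting error. Filip1l had 3 UMIs, 14.4 CPM (2.98 to 42.2) against 86.7 CPM, where the other families ranged from 36.1 to 146 CPM. Mrpl15, of the mitochondrial ribosome, had 4 UMIs, 19.2 CPM (5.24 to 49.3) against 85.7 CPM, where the others ranged from 44.7 to 123 CPM. March7, a ubiquitin ligase gene, had 3 UMIs, 14.4 CPM (2.98 to 42.2) against 60.4 CPM, with 30.4 CPM in the lowest other family. Tespa1, which acts in TCR signalling, had 7 UMIs, 33.7 CPM (13.5 to 69.4) against 114 CPM, with 66.1 CPM in the lowest other family. Hcfc1r1 had 2 UMIs, both in 1 cell, for a ratio of 0.142 (0.0172 to 0.516), 18th of the 19 families, and the pentose phosphate gene Rpia 3, for a ratio of 0.274 (0.0562 to 0.805).

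The 2 remaining named genes were highest in the largest family. Mvd, of cholesterol synthesis, was at 9.62 CPM in members against 81.6 CPM in other one-TRB cells, but at 321 CPM in the largest family and at a median of 11.0 CPM over the other 18 families. Without the largest family its ratio was 0.810. Ctla2a, a protease inhibitor gene, was at 43.3 CPM against 186 CPM, with 501 CPM in the largest family. The members ranked 9th of the 19 families in it, and the median of the other 18 was 40.6 CPM. Its ratio was 0.463 without the largest family, still past 2-fold, and 0.741 against families of 1 or 2 cells.

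UMIs of both edited genes were found in members. Bcor, a Polycomb corepressor, was at 188 CPM in members against 162 CPM in other one-TRB cells, a ratio of 1.16 (0.821 to 1.59). Zc3h12a, the gene of Regnase-1, a nuclease that degrades messenger RNA, had 4 UMIs, 19.2 CPM against 50.3 CPM, a ratio of 0.383 (0.104 to 0.987). It was the lowest of the 19 families, but on 4 UMIs this is close to the next lowest at 22.4 CPM. Whether these 4 UMIs came from free RNA was not tested. An edit need not remove a transcript, so neither level checks the edit. Of 6 tested transcripts known as Regnase-1 targets none was 2-fold higher and 2 were lower, Zc3h12a itself and Rel at 33.7 CPM against 74.0 CPM. Nfkbiz, another of them, was at 476 CPM against 340 CPM, a ratio of 1.40 (1.14 to 1.71). None of the 6 tested Polycomb genes listed with Bcor passed 2-fold.

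Over all fixed lists 170 genes were tested, of which 5 were 2-fold higher, 2.94% against 0.673% of all tested genes, and 11 were 2-fold lower, 6.47% against 2.87%. Among 12 memory and stemness genes only Il7r passed, at 33.7 CPM in members against 74.7 CPM in other one-TRB cells. Tcf7, the factor of stem-like T cells, had a ratio of 0.916 (0.755 to 1.10), and Eomes 1.46 (1.18 to 1.78). Eomes was highest in this family, but only 1.07-fold (0.806 to 1.43) over the next, which is within counting error. None of 14 effector and exhaustion factors passed 2-fold. Tox had a ratio of 1.09 and Bhlhe40, a stress and activation factor, 1.91 (1.44 to 2.49). None of 7 inhibitory receptor genes and none of 7 cytotoxic genes passed either, with Pdcd1 at 1.173, Lag3 at 0.903, Gzmk at 1.05 and Prf1 at 1.09.

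Some chemokine and homing genes were lower in members. Xcl1, which attracts cross-presenting dendritic cells, was at 62.5 CPM in members against 179 CPM in other one-TRB cells, a ratio of 0.350 (0.186 to 0.601), 17th of the 19 families. Ccl5 had a ratio of 0.575 (0.479 to 0.684) but ranked 6th of the 19 families, and the TRBV17 TRBJ1-1 family reached 3292 CPM. Of 13 homing and adhesion genes 2 were 2-fold lower, Cxcr3 and Cxcr5. Cxcr5, a follicle-homing receptor gene, was at 48.1 CPM against 125 CPM. Tgfbr2, a chain of the TGF-beta receptor, was at 33.7 CPM against 73.1 CPM, a ratio of 0.461. Tgfbr2 stayed past 2-fold in 9 of 13 alternative settings. It was at 0.523 with the other families weighted equally, 0.534 with barcodes holding a second TRB added, 0.729 in the 23 members with the most frequent TRA, and 0.503 without members carrying the TRA of another family. Among immediate early and heat shock genes Fosb passed at 77.0 CPM against 159 CPM, and Hspa1a was at 587 CPM against 1030.4 CPM. Fosb also stayed past 2-fold in 9 of the 13 alternative settings, Xcl1 in 11 and Cxcr5 in 12. Xcl1 was at 0.697 in the 23 members with the most frequent TRA. Depth and mitochondrial share, given above, were slightly lower in members, and their part in these ratios was not tested.

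Pigx and Dnmt1 were high in members with each kind of TRA. Pigx was at 1190 CPM (922 to 1511) in the 23 members with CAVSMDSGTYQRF and at 858 CPM (685 to 1061) in the 47 with a TRA of another family. It was at 920 CPM (648 to 1268) in the 23 with no TRA and at 1443 CPM (882 to 2229) in the 8 with other TRA only. Dnmt1 was at 426, 484, 398 and 866 CPM in these 4 groups. The intervals of the first 3 groups overlapped for each gene, and those of all 4 groups lay above the level of other one-TRB cells. The 12 members with the TRA of the largest family had Pigx at 842 CPM (521 to 1287). In these 12 Mvd had no UMI, which allows up to 120 CPM, against 321 CPM in the largest family itself. Osr2, at 271 CPM in the largest family, had 3 UMIs in 2 of these 12, 120 CPM (24.8 to 352). In all members Osr2 was at 43.3 CPM. Whether RNA of the largest family was present in these 12 barcodes was not tested.

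**Figure D5:**
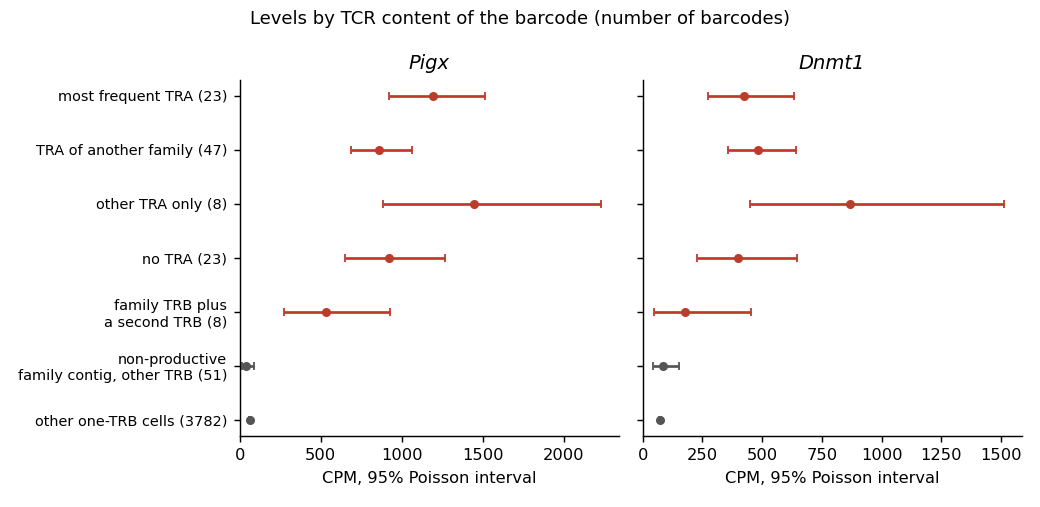
Levels of Pigx and Dnmt1 in counts per 1000000 UMIs (x axes) by the TCR content of the barcode (rows, with the number of barcodes). Points are summed UMIs per 1000000 with 95% Poisson intervals; Pigx was between 858 and 1443 CPM in the 4 groups of members, 531 CPM in barcodes with a second TRB, and 38.3 CPM in barcodes with a non-productive contig of the family CDR3 beside another TRB.

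Barcodes that held the family TRB beside a second productive TRB were no members by the rule. There were 8 among the RNA cells kept, with a median of 2916 UMIs, and their Pigx level was 531 CPM (274 to 928). Of all barcodes with a productive family TRB 6.84% held a second TRB, against 5.42% of all barcodes with a productive TRB. With these 8 counted as members the Pigx ratio was 14.97.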

How the data were processed

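The deposited RNA matrix holds raw counts of UMIs per gene and barcode, and the deposited contig table counts of UMIs and reads per TCR contig. Per the submitters' processing notes the tools were STAR 2.6.1a, featureCounts 2.0.1 and cutadapt 1.17 and the build GRCm38, in roles not stated, and no assembler of TCR contigs was given in the sources used here. Barcodes under 500 UMIs are not analysed here. The libraries were joined on the barcode, and 4590 of 5479 TCR barcodes were RNA barcodes. Cells were kept from 200 genes up and below a mitochondrial share of 20%, 10338 of 10387. Doublets were treated as present, with no caller run; barcodes with 2 TRB are left out by the rule on members.

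UMIs were summed over cells and divided by all UMIs of the group (CPM). Sums have exact Poisson, ratios exact conditional and shares Clopper-Pearson 95% intervals, for counting error only; 0 was read against a floor of 3 UMIs over the group. Genes with at least 10 UMIs expected in the family at the pooled level were compared, leaving out TCR segment, immunoglobulin and haemoglobin genes, and counted at 2-fold. A family is all kept cells with 1 productive TRB of the same nucleotide sequence. The named genes were those of the fixed lists, the 15 with the largest ratio higher and the 10 lower whose interval leaves out 1, 3 annotated neighbours on each side of Pigx, and the 5 genes most like Pigx over families. Some genes that these rules take are not reported here. The neighbours of Dnmt1 were added after its values were seen. Members and lists were chosen with earlier results of these data known. Gene positions are from RefSeq for GRCm38. The interval calculation was tested on simulated data. Python 3.11.15, numpy 2.4.6, scipy 1.17.1, pandas 2.3.3 and matplotlib 3.10.9 were used. Alternatives changed the cell filter, the scaling, the depth, the members and the cells they were set against.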

Additional observations from a re-analysis of the deposited data

Results flagged for a closer look

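Outside the productive contigs on which the members were chosen, the TCR library held 61 non-productive contigs with the family CDR3, above the 3 that a count of 0 allows. Such contigs were also found for each of the other 18 families: the family had 61 per 100 cells, and the others had between 15.9 and 477 with a median of 89.5. They had a median of 5 UMIs, with a range of 1 to 33. They lay in 57 RNA cells kept, of which 51 had another productive TRB, most often that of the largest family in 13 cells and of the second largest in 8. No member held one. The 51 cells had Pigx at 38.3 CPM (12.4 to 89.3) and Dnmt1 at 84.2 CPM, against 63.2 and 73.0 CPM in all other one-TRB cells. In the 6 cells with such a contig and no productive TRB, Pigx had 1 UMI. The source of these contigs was not tested.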

How the results depend on the processing

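The Pigx ratio of 15.7 lay between 14.5 and 17.6 under 13 alternatives and was 18.8 in the members with the most frequent TRA alone. The share of the family among cells, 2.58%, lay between 2.53% and 2.62%, and the share of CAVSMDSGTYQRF, 23.0%, between 21.1% and 29.9%. The 23 genes 2-fold higher became 38 with the other families weighted equally, 36 without the largest family, 98 against families of 1 or 2 cells, 7 at 1000 UMIs per cell, 8 in members with the most frequent TRA, and 14 without members carrying the TRA of another family. They became 87 with at least 5 UMIs expected, 7 with at least 20, 256 at 1.5-fold and 3 at 3-fold. The 98 genes 2-fold lower became 45 at 1000 UMIs per cell, 29 in members with the most frequent TRA, 61 without members carrying the TRA of another family, 366 with at least 5 UMIs expected, 22 with at least 20, 298 at 1.5-fold and 17 at 3-fold. Fewer members, thinning and the expected minimum change how many genes are tested (837 to 5625); for the other changes the cause was not tested. Nt5e, at 0.365, was at 1.01 in members with the most frequent TRA, and no other of the 33 genes followed turned its direction. Against families of 1 or 2 cells Aff1, Cers5, Mvd, Ctla2a and Fosb were no longer past 2-fold. In members with the most frequent TRA 10 of 14 higher and 15 of 19 lower of these genes were past 2-fold, and in the other members 11 of 14 and 16 of 19. Leaving out members with the TRA of another family, barcodes with a non-productive family contig, or the single member with most UMIs of a gene was chosen after seeing the data. No paired analysis was possible because no group has replicates. Depth limits the lower genes most: 8 of the 10 named have 4 UMIs or fewer in the family.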

Other observations

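Few cycling cells were seen among members or others, and none of the 12 cycling genes reached the depth set for testing. Of 96 members thinned to 1000 UMIs, 1 had UMIs of at least 2 cycling genes, 1.04% (0.0264 to 5.67), against 10 of 3645 other one-TRB cells, 0.274%. Summed cycling genes were at 81.8 CPM in the family against 85.5 CPM in the others. In the family 8 of the 12 genes, among them Mki67, Birc5, Ccnb1 and Ube2c, were at 0 UMIs. Top2a had 5 UMIs and a ratio of 1.91 (0.609 to 4.60), and Stmn1 8 and 1.38 (0.588 to 2.76). Cdk1 had 2 UMIs and a ratio of 3.06 (0.353 to 12.2), and Tyms 2 and 0.413 (0.0497 to 1.51). Energy metabolism was close to that of the others. The 9 tested glycolysis genes had a median ratio of 0.903, with Gapdh at 818 CPM in members against 905 CPM in other one-TRB cells, and the 15 of oxidative phosphorylation a median of 1.05, with Cox4i1 at 1227 CPM against 1171 CPM. None of these 24 genes passed 2-fold. The 4 tested survival genes had ratios under 1, from Pmaip1 at 0.707 to Bcl2 at 0.918, and the summed list was 18th of the 19 families at 909 CPM against 1098 CPM.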
